A study of Mus musculus with 8 samples.

Results

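The 10 genes described here were listed as genes of macrophages that derive from recruited monocytes or that carry the lipid-associated program. Not all of them are specific to such macrophages. The genes are *Lgals3*, *Spp1*, *Trem2*, *Gpnmb*, *Arg1*, *Cd68*, *Fcgr2b*, *Cd9*, *Apoe*, and *Ly6c2*. They were taken by symbol from a table of 16994 genes, and all 10 of them passed the filter that left 12999 genes for testing (a mean of at least 1 CPM, the count scaled to the size of its library). RNA was sequenced from the hearts of male WT mice and of TKO mice, in which *Tigar*, which encodes a regulator of glycolysis, was deleted in the whole body, so that macrophages carried the deletion as well as cardiomyocytes. The infarct, border, and remote zones came from hearts after myocardial infarction (MI), made by ligation of the left anterior descending artery at 16 weeks of age. The paper imaged hearts up to 4 weeks after MI, and it does not state when the zones were taken for RNA. The left ventricle libraries serve as tissue without a labelled zone, and whether those mice were sham operated is not given in the sources used here. Each genotype and region was 1 library, 8 in all, and RNA of 3 mice was pooled for an infarct zone library. No ratio between 2 libraries therefore has a replicate check, and the intervals given with such ratios are 95% exact binomial intervals that cover counting error only.

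After MI, monocytes that express the surface protein encoded by *Ly6c2* leave the blood, enter the damaged wall, and become macrophages that clear dead cells and lipid and take part in building the scar. Macrophages that take up much lipid switch on a common program around the lipid receptor encoded by *Trem2*, which signals through the adaptor encoded by *Tyrobp*. The program includes *Spp1* (osteopontin), *Gpnmb* (a transmembrane glycoprotein of phagocytic cells), *Lgals3* (galectin-3), *Cd9* (a tetraspanin), and *Apoe* (apolipoprotein E, a lipid carrier). Several of these genes, among them *Cd9*, *Apoe*, *Lgals3*, and *Spp1*, are also transcribed by cells other than macrophages. In bulk tissue, fewer cells of a type and less RNA per cell cannot be told apart.

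Total estimated counts per library lay between 27429240 and 33799249 (median 31908446), and edgeR's TMM method, which scales libraries so that most genes keep a ratio near 1, gave factors of 1.54 and 1.26 to the infarct zones of WT and TKO, while the 6 remaining factors were 0.866 to 0.956. *Tigar* had 1965, 1066, 2215, and 1997 counts in the WT left ventricle, infarct, border, and remote zone, and 51, 87, 79, and 87 in the same TKO regions, so every library labelled TKO had less than every library labelled WT. All 10 pan-macrophage markers (such as *Adgre1*, *Csf1r*, and *C1qa*) passed the filter. The 2 left ventricle libraries stood apart in adipocyte markers, whose summed level over 4 genes was 30.5 CPM in WT and 0.463 CPM in TKO. Tests across regions are therefore also given below without the left ventricle where that changed a call.

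The positions of the members in the mouse genome (GRCm38, which is mm10) were read from the GENCODE M21 annotation. *Lgals3* lies at chr14:47367751-47386160 and *Spp1* at chr5:104435118-104441050, both on the plus strand. *Trem2* (chr17:48346401-48354147) and *Gpnmb* (chr6:49036546-49070929) are also on the plus strand. *Arg1* (chr10:24915221-24927484), *Cd68* (chr11:69664213-69666153), *Fcgr2b* (chr1:170958617-170976547), *Cd9* (chr6:125460266-125494791), *Apoe* (chr7:19696109-19699188), and *Ly6c2* (chr15:75108158-75111970) are on the minus strand. The members lie on 9 chromosomes, and *Gpnmb* and *Cd9* share chromosome 6. *Tigar*, the deleted gene, also lies on that chromosome, at chr6:127085116-127109557 on the minus strand.

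Since the members moved together over the libraries, the 250 bases before their RefSeq starts (GRCm38.p6) were searched on both strands for 3 motifs of macrophage transcription factors. For PU.1, the lineage factor of macrophages, the letters GAGGAAG were searched. For the E-box of the TFEB, TFE3, and MITF family, which controls lysosome genes, the letters were TCACGTG, and for AP-1, TGANTCA. A promoter was found for 9 of the 10 members. PU.1 letters were in the promoter of *Spp1*, *Trem2*, and *Ly6c2*, 3 of 9 genes against 12% of all 27025 genes with a promoter. AP-1 letters were before *Trem2* and *Cd68*, 2 of 9 against 7.82%, and the E-box letters were before 0 of 9 against 3.58%. No motif overlapped another. A match is a description of the reference sequence only. The promoters shown are those of *Spp1* (the upstream one of 2 RefSeq starts) and *Trem2*, which hold PU.1 letters and belong to the lipid-associated program, and of *Cd68*, which has a pair of AP-1 matches, read 5′ to 3′ along the strand of the gene with the motif letters in capitals.
*Spp1*, chr5:104434861-104435110, plus strand: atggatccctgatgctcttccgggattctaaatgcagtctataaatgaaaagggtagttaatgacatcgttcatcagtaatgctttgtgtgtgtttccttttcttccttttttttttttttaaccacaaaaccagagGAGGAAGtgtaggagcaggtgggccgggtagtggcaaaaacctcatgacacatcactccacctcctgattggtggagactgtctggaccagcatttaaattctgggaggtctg
*Trem2*, chr17:48346151-48346400, plus strand: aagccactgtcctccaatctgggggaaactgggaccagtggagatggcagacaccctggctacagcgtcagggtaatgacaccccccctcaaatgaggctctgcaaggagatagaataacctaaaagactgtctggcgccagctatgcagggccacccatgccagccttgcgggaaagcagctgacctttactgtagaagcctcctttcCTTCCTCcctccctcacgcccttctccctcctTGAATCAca
*Cd68*, chr11:69666171-69666420, minus strand: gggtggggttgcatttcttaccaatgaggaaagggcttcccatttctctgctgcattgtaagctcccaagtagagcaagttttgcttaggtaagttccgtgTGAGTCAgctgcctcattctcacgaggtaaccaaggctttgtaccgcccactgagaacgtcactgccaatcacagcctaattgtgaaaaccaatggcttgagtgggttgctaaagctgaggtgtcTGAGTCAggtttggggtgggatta
In the *Spp1* promoter the PU.1 letters lie at bases -113 to -107 from the start. In that of *Trem2* they lie at -41 to -35, read on the opposite strand, and are followed by AP-1 letters at -9 to -3. *Cd68* has AP-1 letters at -149 to -143 and at -24 to -18.

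Some members share sequence with other genes, which bears on how reads could be assigned. Of all 31-base words in the transcripts of *Ly6c2*, 23.8% also occur in another gene, and 21.4% in its neighbor *Ly6c1*, an endothelial and monocyte gene that had 2758 to 4387 counts per library against 2 to 140 for *Ly6c2*. For *Fcgr2b* the share was 8.15%, of which 4.15% lay in the activating receptor gene *Fcgr3*. *Cd9* shared 20.1% and *Spp1* 14.3%, most often with the predicted genes *Gm26728* and *Gm42793*. The share was 0.74% for *Gpnmb*, 0.04% for *Trem2*, and 0 for *Lgals3*, *Arg1*, *Cd68*, and *Apoe*. The counts of *Ly6c2* are the least certain of the 10 for this reason and for their low depth. The longest identical coding stretches with the near copies are shown because a read inside them cannot tell the genes apart, and they are taken from GENCODE M21 transcripts of genes on the minus strand.
*Ly6c2* and *Ly6c1*, coding bases 66 to 253 of each: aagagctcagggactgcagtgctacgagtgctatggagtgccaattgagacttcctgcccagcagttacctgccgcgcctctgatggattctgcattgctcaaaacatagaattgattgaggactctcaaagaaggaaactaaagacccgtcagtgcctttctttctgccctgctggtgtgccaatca
*Fcgr2b* and *Fcgr3*, coding bases 278 to 406 of *Fcgr2b* and 263 to 391 of *Fcgr3*: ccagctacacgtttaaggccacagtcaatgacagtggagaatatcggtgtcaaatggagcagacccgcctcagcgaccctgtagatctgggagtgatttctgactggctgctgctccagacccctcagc
The first stretch is 188 bases of the 393 coding bases of *Ly6c2*, and the second is 129 of the 1020 coding bases of *Fcgr2b*.

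Per kilobase of exon, *Apoe* was the most abundant of the 10 in each of the 8 libraries, with 790 scaled CPM per kilobase in the WT infarct zone and 617 in the TKO infarct zone. The length used was the union of all annotated exons of a gene, such as 4946 bases for *Trem2* and 1257 for *Cd68*. With another length, such as that of a single transcript, the order below could differ. In the WT infarct zone *Apoe* was followed by *Spp1* (63.2), *Cd9* (62.1), *Lgals3* (45.8), *Cd68* (29.2), *Fcgr2b* (9.70), *Gpnmb* (9.29), *Trem2* (2.71), *Arg1* (2.70), and *Ly6c2* (1.21), all in scaled CPM per kilobase. The pairs *Spp1* and *Cd9*, *Fcgr2b* and *Gpnmb*, and *Trem2* and *Arg1* are so close there that their order has no support from replicates. *Lgals3* had rank 5 in the left ventricle of both genotypes and rank 4 in all 3 WT zones, while among the TKO zones it had rank 4 in the infarct and rank 5 in the others.

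All 10 genes were higher in the infarct zone than elsewhere in both genotypes. With genotype as a covariate, edgeR's quasi-likelihood test called all 10 of them higher in the infarct zone than in the left ventricle, against 28.2% of the genes tested. The fitted fold changes ran from 3.44 for *Apoe* and *Cd9* to 15.7 for *Arg1*, with Benjamini-Hochberg adjusted p-values (edgeR) between 0.000184 and 0.00343. The 10 members were also called higher in the infarct than in the border zone (21.6% of genes tested), by 2.36-fold for *Cd68* to 12.2-fold for *Ly6c2* (edgeR adjusted p between 0.00207 and 0.0393). DESeq2 (27% and 21.2% of genes) and edgeR on total counts (7869 and 7475 of 12999 genes) called the same number of members, 10, in both comparisons. The count over all genes depended on the scaling: 3670 genes were called higher and 3715 lower in the infarct zone with TMM, and 7869 and 1084 with total counts, which raised the zone over left ventricle change of every gene by 0.83 on the log2 scale in WT and by 0.54 in TKO. *Arg1* and *Ly6c2*, at the upper ends of the 2 fold ranges, passed the filter only with the infarct zone libraries. Their infarct zone calls are therefore not independent of the filter. These tests take the 2 genotypes as replicates of a zone and have 3 residual degrees of freedom.

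**Figure D1:**
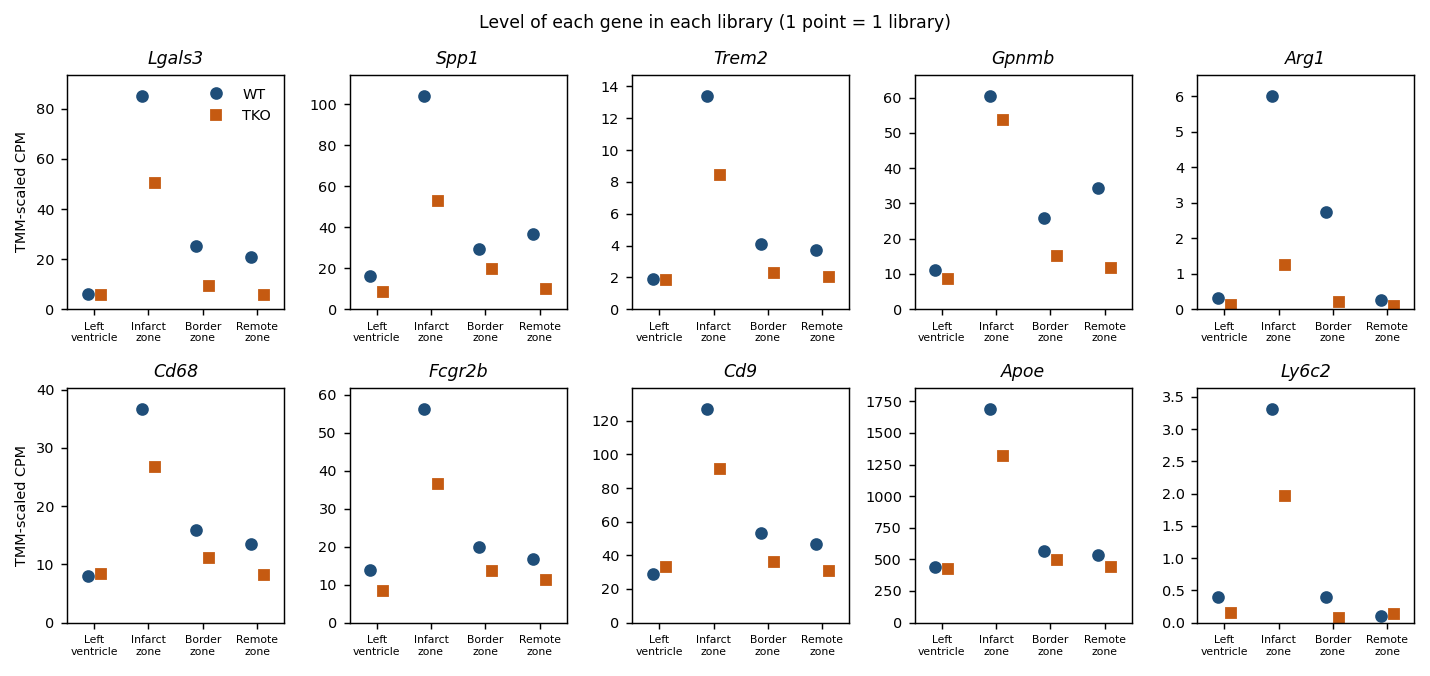
TMM-scaled CPM (vertical axes, each starting at 0) of the 10 genes in the left ventricle and the infarct, border, and remote zone. Circles are WT and squares TKO, 1 point per library, and in each panel the 2 infarct zone points are the highest of their genotype, for *Lgals3* at 85.2 CPM in WT and 50.3 CPM in TKO.

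*Lgals3*, a secreted lectin that stimulates fibroblasts and is abundant in phagocytes, had 5.98, 85.2, 25.2, and 20.7 scaled CPM in the WT left ventricle, infarct, border, and remote zone. In TKO the values were 5.87, 50.3, 9.37, and 5.71 in the same order. The left ventricles were thus alike, and the TKO remote zone stayed at the level of the TKO left ventricle while the WT remote zone was above both left ventricles. *Spp1*, a secreted phosphoprotein that binds integrins, had 16.4, 104, 29.2, and 36.6 scaled CPM in WT and 8.38, 52.9, 19.6, and 10.1 in TKO. It was lower in TKO in each of the 4 regions, the left ventricle included.

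*Gpnmb* had 11.1, 60.5, 25.8, and 34.4 scaled CPM in the WT left ventricle, infarct, border, and remote zone and 8.49, 53.8, 15.2, and 11.7 in TKO. *Gpnmb* and *Spp1* were the 2 members that WT hearts held at a higher level in the remote than in the border zone. The border over remote ratio in WT was 0.798 for *Spp1* (0.730 to 0.872) and 0.751 for *Gpnmb* (0.684 to 0.824). In TKO it was 1.94 for *Spp1* (1.68 to 2.23) and 1.29 for *Gpnmb* (1.12 to 1.49), so both genes were higher in the TKO border than in the TKO remote zone. Whether the genotypes differ in this order could not be tested with 1 library each.

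*Trem2*, the lipid receptor, had 1.90, 13.4, 4.09, and 3.71 scaled CPM in WT and 1.81, 8.42, 2.29, and 2.03 in TKO, in the same order of regions. Its adaptor *Tyrobp* was listed at 0 counts in 5 libraries, among them both infarct zones where *Trem2* had 567 and 301 counts, and at 68, 71, and 25 in the WT border, TKO border, and WT remote zone. Since *Tyrobp* is used by most myeloid cells, no ratio is given for it. *Cd68*, a lysosomal glycoprotein of macrophages, had 7.95, 36.6, 15.8, and 13.5 scaled CPM in WT and 8.34, 26.7, 11.1, and 8.20 in TKO. Like *Lgals3* and *Trem2*, it had near equal levels in the 2 left ventricles and lower TKO levels in the 3 zones.

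*Fcgr2b*, the inhibitory receptor for IgG, had 13.7, 56.2, 19.9, and 16.7 scaled CPM in WT and 8.22, 36.5, 13.6, and 11.1 in TKO. Its TKO over WT ratio was the least variable of the members, between 0.599 and 0.686 in all 4 regions. *Cd9* had 28.7, 127, 53.1, and 46.7 scaled CPM in WT and 33.1, 91.2, 36.0, and 30.6 in TKO, so that TKO was the higher of the 2 in the left ventricle and the lower in each zone. *Apoe* had 439, 1688, 568, and 534 scaled CPM in WT and 428, 1319, 493, and 443 in TKO, and its ratio of 0.973 to 0.781 made it the member nearest to 1 in the border and remote zone.

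*Arg1*, the arginase that converts arginine to ornithine in reparative macrophages, had 9, 254, 84, and 8 counts in the WT left ventricle, infarct, border, and remote zone and 3, 45, 6, and 3 in TKO. Its counts were thus high in the WT infarct and border zones, and the TKO border zone did not differ from the TKO left ventricle at this depth (ratio 1.75, 0.373 to 10.8). *Arg2*, the mitochondrial isoform, had 49 counts in the WT and 47 in the TKO infarct zone. *Ly6c2* had 11, 140, 12, and 3 counts in WT and 4, 70, 2, and 4 in TKO, and it was above 12 counts in the infarct zones alone. A count of 3 is taken as the floor and corresponds to 0.0888 to 0.109 CPM without TMM scaling. The other 8 members had at least 47 counts in every library.

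In the border zone 9 of 10 members were above the left ventricle of their genotype in WT (50.4% of all genes) and 9 of 10 in TKO (48.5%). *Ly6c2* was below it in both, on 12 against 11 counts in WT and 2 against 4 in TKO. In the remote zone 8 of 10 were above it in WT (52.4% of all genes) and 5 of 10 in TKO, near the 47.4% of all genes there. Whether the genotypes differ in these counts was not tested. In the WT border zone 4 of 10 members (*Lgals3*, *Trem2*, *Gpnmb*, and *Arg1*) were at least 2-fold above the WT left ventricle after a prior count of 2, against 5.39% of all genes tested, and the median of the 10 ratios was 1.92 (all genes 1.003). In the WT remote zone 3 of 10 were (*Lgals3*, *Spp1*, and *Gpnmb*, against 3.4%), with a median of 1.67, and *Ly6c2* was at least 2-fold lower. In the TKO border zone only *Spp1* passed the same fold, 1 of 10 against 4.38%, with a median of 1.46. In the TKO remote zone 0 of 10 did, against 3.06%, with 5 members above and 5 below the left ventricle (7 above with total counts) and a median of 1.01. In the infarct zone all 10 passed it in WT (18.8% of genes, median 5.91) and in TKO (16.2%, median 5.48). Among them were *Arg1* and *Ly6c2*, which passed the filter only with the infarct zone libraries. The largest of the WT border and remote ratios with counts of at least 100 in the zone were those of *Lgals3*, 4.22 (3.56 to 5.02) and 3.45 (2.90 to 4.13).

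**Figure D2:**
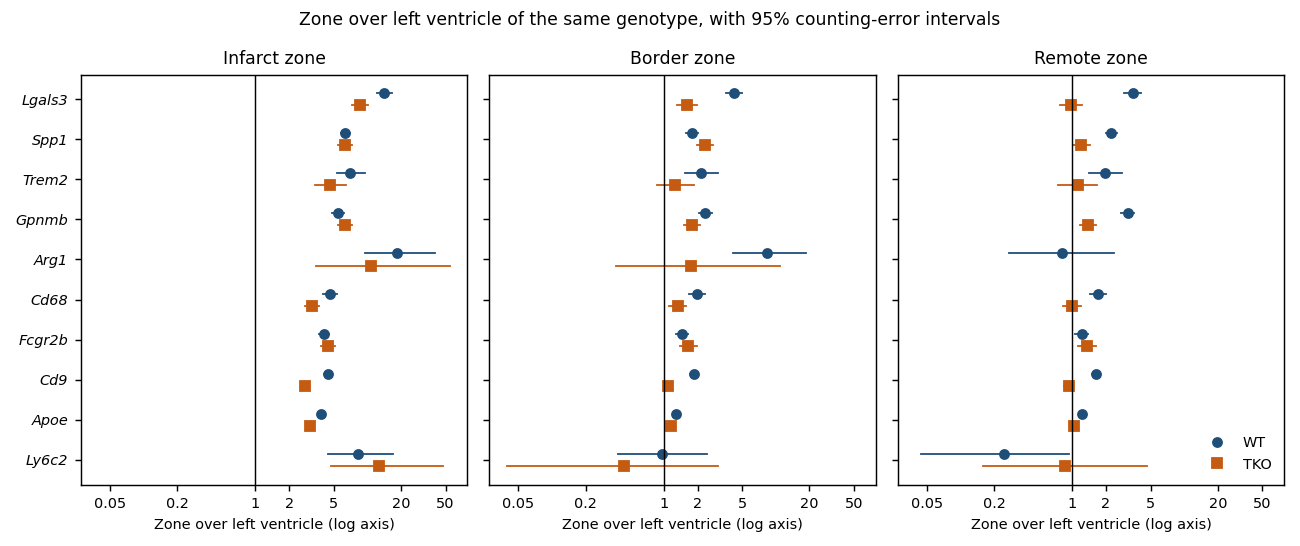
Each post-MI zone divided by the left ventricle of its own genotype (horizontal log axes) for the 10 genes, with lines for 95% counting-error intervals. Circles are WT and squares TKO, the vertical line marks a ratio of 1, and *Arg1* in the TKO remote zone is not drawn since both of its libraries had 3 counts. All 20 infarct zone points lie above 2, and in the remote zone the TKO points lie between 0.860 and 1.38.

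Tested across both genotypes, calls among the members in the border zone depended on the tool, and the remote zone gave none with edgeR or DESeq2. EdgeR called 0 of 10 members higher in the border zone than in the left ventricle (0.669% of genes, 87 in number), 7 of 10 had an unadjusted p under 0.05 (17.9% of genes), and the lowest adjusted p was 0.0585, for *Fcgr2b*. DESeq2 called 4 of 10 higher, against 3.66% of genes (476 in number), which were *Lgals3*, *Spp1*, *Gpnmb*, and *Fcgr2b*. EdgeR on total counts called *Fcgr2b* alone (edgeR adjusted p = 0.0474), against 1.45% of genes. For the remote zone against the left ventricle, edgeR called 0 genes of 12999 (0%), 1378 had an unadjusted p under 0.05 (10.6%), and 3 of the members were among these. DESeq2 called 127 genes higher (0.977%) and 35 lower in that comparison, with 0 members. Between the border and remote zones edgeR called 0 genes (0%; 497 or 3.82% at an unadjusted p under 0.05, 2 of them members) and DESeq2 44 higher (0.338%) and 15 lower, again with 0 members.

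In each zone after MI the members were lower in TKO than in WT with 1 exception. In the infarct and border zones all 10 ratios and their counting intervals were below 1. Of all genes, 49.2% were lower in TKO in the infarct, 50.3% in the border, and 52% in the remote zone. In the remote zone 9 of 10 ratios were below 1, of which that of *Arg1*, on 3 and 8 counts, had an interval that included 1 (0.379, 0.0648 to 1.58). The exception was *Ly6c2* in the remote zone, with 4 counts in TKO and 3 in WT (ratio 1.35, 0.228 to 9.20). Over the 10 genes the ratio had a median of 0.639 in the infarct, 0.628 in the border, and 0.576 in the remote zone, where the medians of all genes were 1.005, 0.999, and 0.993. In the left ventricle 8 members were lower and 2 higher (48.6% of all genes were lower), with a median of 0.862 against 1.006 for all genes. Among these 8, the intervals of *Lgals3* (0.781 to 1.23), *Trem2* (0.631 to 1.45), *Arg1* (0.0614 to 1.41), and *Ly6c2* (0.0894 to 1.30) included 1.

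**Figure D3:**
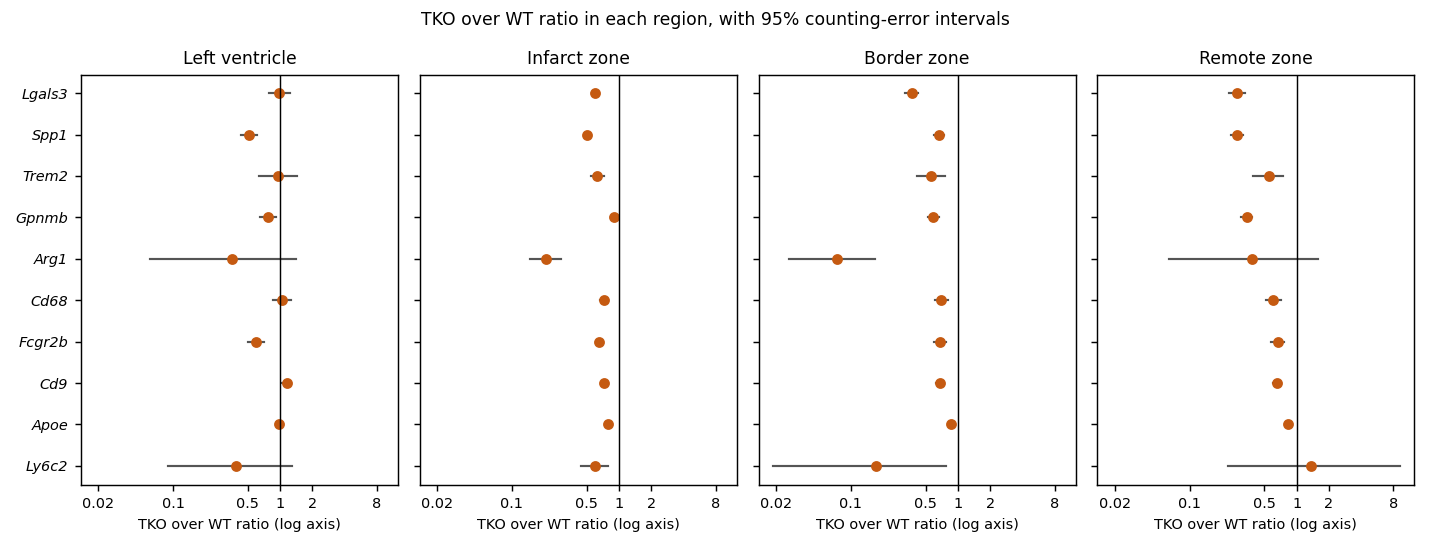
TKO over WT ratio of the 10 genes in each region (horizontal log axes), with lines for 95% counting-error intervals and a vertical line at 1. In the infarct and border panels all 10 points lie to the left of 1, and in the remote panel *Lgals3* and *Spp1* lie at 0.276.

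The members that were at least 2-fold lower in TKO differed between regions. In the remote zone they were *Lgals3* (0.276, 0.232 to 0.328), *Spp1* (0.276, 0.242 to 0.313), and *Gpnmb* (0.341, 0.301 to 0.385), 3 of 10 against 2.36% of all genes. In the border zone they were *Lgals3* (0.371, 0.322 to 0.426), *Arg1* (0.0742, 0.0265 to 0.168), and *Ly6c2* (0.173, 0.0188 to 0.778), 3 of 10 against 3.25%. There *Arg1* had 6 counts in TKO and 84 in WT, and *Ly6c2* had 2 and 12. Both *Arg1* and *Ly6c2* passed the filter only with the infarct zone libraries, which limits the comparison with the share of all genes. In the infarct zone *Arg1* alone passed this fold (0.210, 0.149 to 0.289), 1 of 10 against 1.45%, and *Spp1* was next at 0.508 (0.481 to 0.536). With total counts, which lowered each infarct zone ratio by 0.29 on the log2 scale, 4 of 10 members and 491 genes passed it there instead of 1 and 189. In the left ventricle *Arg1* and *Ly6c2* passed it, 2 of 10 against 3.56%, but each had 11 or fewer counts in both libraries and an interval that included 1. No member was at least 2-fold higher in TKO in any region.

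*Gpnmb* varied most between zones among the well-counted members, with a TKO over WT ratio of 0.889 (0.837 to 0.943) in the infarct, 0.587 (0.522 to 0.660) in the border, and 0.341 in the remote zone. *Lgals3* followed the same order, from 0.591 (0.558 to 0.625) in the infarct zone to 0.276 in the remote zone. *Cd68* had 0.728, 0.70, and 0.606, *Cd9* had 0.718, 0.678, and 0.656, and *Trem2* had 0.628, 0.561, and 0.546 in the infarct, border, and remote zone, with overlapping counting intervals between neighboring zones. *Spp1* did not follow this order, since its border zone ratio of 0.669 (0.602 to 0.744) was the nearest to 1.

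Across the 4 regions, with region as a block, edgeR called 1 of the 10 members lower in TKO, against 0.0615% of genes (8 of 12999). This was *Fcgr2b*, with a fitted change of -0.62 on the log2 scale (edgeR adjusted p = 0.0493), lower in TKO in 4 of 4 regions. The other 9 were not called: the fitted log2 change was -2.43 for *Arg1* and -1.09 for *Spp1* (edgeR adjusted p = 0.155 for both) and -1.04 for *Lgals3* (edgeR adjusted p = 0.2), and for the remaining 6 it lay between -1.0 and -0.22. Without adjustment 8 of 10 members had p under 0.05, as did 16.2% of all genes tested. DESeq2 called 4 members lower, against 1.65% of genes (214 of 12999), with adjusted p-values (DESeq2) of 2.49e-05 for *Fcgr2b*, 0.000105 for *Spp1*, 0.00227 for *Arg1*, and 0.0136 for *Lgals3*. The edgeR call of *Fcgr2b* lies at the threshold. It was lost with the size factors of DESeq2 (edgeR adjusted p = 0.0532). It was also lost when the infarct, border, or remote zone was left out (edgeR adjusted p = 0.323, 0.377, and 0.297). Without the left ventricle *Fcgr2b* and *Cd9* were called (edgeR adjusted p = 0.0426 and 0.0489), among 60 genes called lower instead of 8. Leaving out the left ventricle was repeated after its adipocyte genes had been seen. The regions stand in for replicates here, although the 3 zones of a genotype were dissected from infarcted hearts and may come from the same mice, which the sources used here do not state. They are then not independent samples, and the spread between mice is not measured.

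Whether the left ventricle departed from the 3 zones in the genotype difference was tested with an interaction term, which rests on 1 TKO and 1 WT left ventricle library. EdgeR called 0 of 10 members, against 0.646% of genes (84 of 12999), and DESeq2 called 0 as well, against 2.15% of genes. At an unadjusted p under 0.05 there were 3 of 10 members, against 16.8% of genes, and they were *Cd9*, *Cd68*, and *Lgals3*. Their fitted log2 departures were 0.75 (edgeR adjusted p = 0.0937), 0.62 (edgeR adjusted p = 0.188), and 1.26 (edgeR adjusted p = 0.275), and *Cd9* was called with total counts (edgeR adjusted p = 0.0397). A different genotype effect in the left ventricle was thus not shown for any member under TMM scaling.

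Markers of other cells moved with the same libraries. The 10 pan-macrophage markers, which most macrophages express, were lower in TKO in 10 of 10 genes in the infarct and border zones and in 9 of 10 in the left ventricle and the remote zone, with median ratios of 0.710, 0.808, 0.860, and 0.793 in that order. Across regions edgeR called 0 of the 10 (8 at an unadjusted p under 0.05) and DESeq2 called 4 lower, which are the numbers that DESeq2 and the unadjusted p also gave for the 10 members. *Adgre1*, which encodes F4/80, had ratios of 0.783, 0.827, 0.799, and 0.840 in the infarct, border, and remote zone and the left ventricle, and *Csf1r*, the receptor for the macrophage growth factor CSF1, had 0.785, 0.826, 0.786, and 0.803 in the same order. Pan-leukocyte markers were lower in 8 of 8 genes in every region, with medians between 0.593 and 0.670. That list was drawn up when lower levels of such genes in TKO were already known from these libraries, so its direction is a description and no test of it is given. The other lists were also chosen with earlier results known, and none is independent evidence of a direction. Fibroblast markers were lower in 8 of 8 genes in each zone (medians 0.810, 0.568, and 0.690 in the infarct, border, and remote zone) and had a median of 1.19 in the left ventricle. Cardiomyocyte markers had a median ratio of 1.95 in the infarct zone and 1.23 in the border zone, with 8 of 8 genes higher in TKO in each. In the remote zone 7 of 8 were higher (median 1.11), while 5 of 8 were higher in the TKO left ventricle (median 1.13). Across regions edgeR called 0 of these 8 genes, 0 had an unadjusted p under 0.05, and DESeq2 called 1 higher. Summed over 8 genes, the cardiomyocyte markers had 10700 CPM in the WT and 21500 CPM in the TKO infarct zone, and none was at 0. The part of cell makeup in the members' ratios was not tested.

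Set against the geometric mean of the 10 pan-macrophage markers in the same library, which does not depend on library scaling, the median over the members was closer to 1 in each region. In the infarct, border, and remote zones 9 of 10 members lay closer to 1 than their own TKO over WT ratio, and the 1 member farther from it was *Gpnmb*, *Apoe*, and *Ly6c2* in that order. In the left ventricle 5 of 10 were closer, and the 5 farther were *Lgals3*, *Trem2*, *Cd68*, *Cd9*, and *Apoe*. The geometric mean of the markers had TKO over WT ratios of 0.7243 (infarct), 0.6892 (border), 0.7605 (remote), and 0.8437 (left ventricle). Division by a ratio below 1 raises every member, which by itself brings the low ones closer to 1. The counts of closer members and the shift of the median therefore cannot show whether the members followed the markers. The share of all genes that came closer was not determined. The intervals of these relative ratios are 95% normal approximations on the log scale, for counting error only. The median of the 10 relative ratios (TKO over WT) was 1.02 in the left ventricle, 0.883 in the infarct, 0.912 in the border, and 0.757 in the remote zone. In the remote zone *Spp1* (0.363, 0.316 to 0.416), *Lgals3* (0.363, 0.304 to 0.434), and *Gpnmb* (0.448, 0.393 to 0.511) remained lower relative to the panel, and *Trem2* (0.717), *Cd68* (0.797), and *Cd9* (0.862) also had intervals below 1, of which that of *Trem2* reached 0.984. In the border zone *Lgals3* (0.539), *Gpnmb* (0.852), and *Arg1* (0.108) had intervals below 1, and in the infarct zone *Lgals3* (0.815), *Spp1* (0.701), *Trem2* (0.867), *Arg1* (0.289), and *Fcgr2b* (0.898) did. *Apoe* had intervals above 1 in all 4 regions, between 1.08 and 1.26, and *Gpnmb* was above 1 in the infarct zone (1.23, 1.15 to 1.31). *Cd68* was at 1.01 and 1.02 in the infarct and border zones, with intervals that included 1. *Lgals3* was the single member with an interval below 1 in each of the 3 zones.

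**Figure D4:**
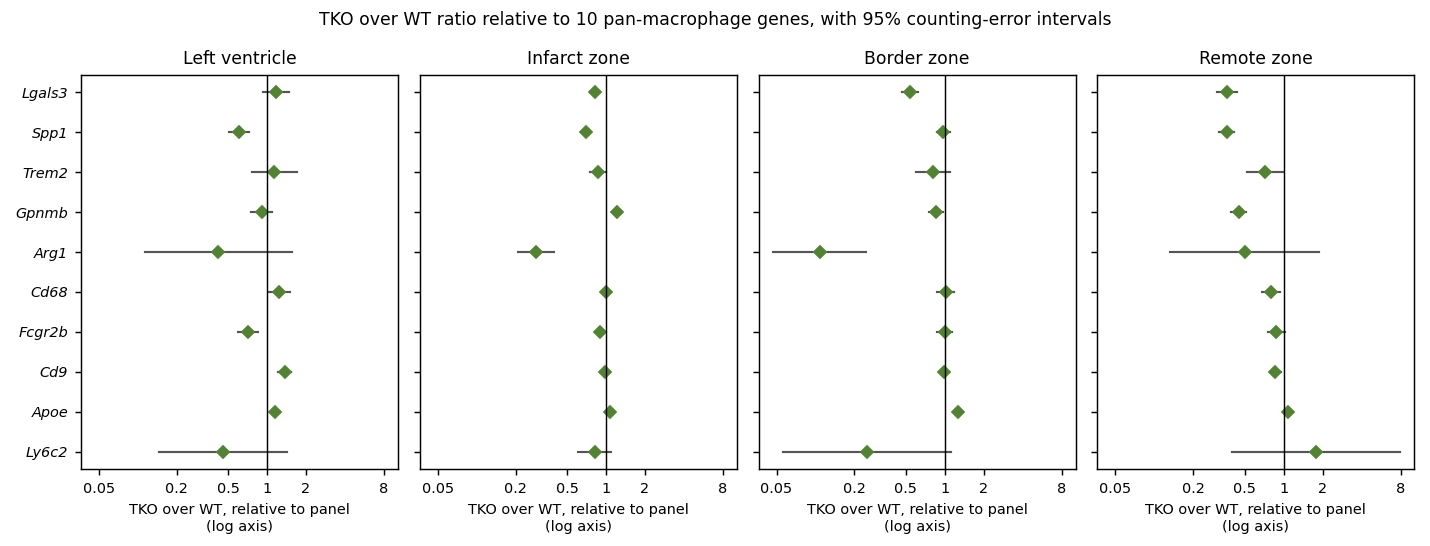
TKO over WT ratio of the 10 genes relative to the geometric mean of 10 pan-macrophage genes in the same library (horizontal log axes), by region, with lines for 95% counting-error intervals and a vertical line at 1. In the remote panel *Lgals3*, *Spp1*, and *Gpnmb* lie between 0.363 and 0.448, and *Apoe* lies to the right of 1 in all 4 panels.

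Other macrophage gene lists differed in their medians. The 14 recruited monocyte genes were lower in TKO in 13 of 14 in the infarct, 11 of 14 in the border, and 9 of 14 in the remote zone, with medians of 0.581, 0.607, and 0.636, and across regions edgeR called 0 of 14 (8 at an unadjusted p under 0.05) and DESeq2 5 lower. Summed over the 14 genes, TKO was at 0.697 of WT in the infarct, 0.994 in the border, and 0.953 in the remote zone. *Fn1* was lower in the TKO infarct zone (ratio 0.512). It was higher in the TKO border and remote zones, at 54.5 and 40.3 scaled CPM against 16.4 and 12.5 in WT. *Ccr2*, the chemokine receptor by which monocytes leave the marrow, had 1484, 364, and 222 counts in the WT infarct, border, and remote zone and 470, 165, and 122 in TKO, with ratios of 0.375, 0.471, and 0.555. In the left ventricle its ratio was 1.44 (1.04 to 2.0). The 8 genes of resident macrophages had medians of 1.04, 1.35, and 0.937 in the infarct, border, and remote zone, while their left ventricle median was 0.808. In the 3 zones 5, 6, and 2 of 8 were higher in TKO, while the summed TKO level was 0.854, 0.938, and 0.924 of WT. EdgeR and DESeq2 called 0 of these 8 across regions, with 1 at an unadjusted p under 0.05. The scar-associated genes (12) had medians between 0.703 and 0.776 in the 3 zones, the lipid-handling genes (15) between 0.812 and 0.866, and the lysosome genes (11) between 0.885 and 0.905. Their summed levels differed from these medians. For lipid handling, the TKO over WT ratio of the sum was 1.53, 1.24, and 1.13 in the infarct, border, and remote zone. Its most abundant genes *Lpl* and *Cd36* had ratios of 1.78 and 1.83 in the infarct zone. The sum ratios were 1.01, 0.992, and 0.989 for the lysosome genes and 0.769, 0.769, and 0.763 for the scar-associated genes. Across regions edgeR called 0 in each of these 3 lists, with 8, 5, and 1 genes at an unadjusted p under 0.05, and DESeq2 called 3, 0, and 1 lower. Of the 7 tested genes of TREM2 signaling, 0 were called by edgeR (3 at an unadjusted p under 0.05), and DESeq2 called 1 lower and 1 higher. *Fcgr3*, the near copy of *Fcgr2b*, had ratios of 0.60, 0.626, and 0.705 in the infarct, border, and remote zone and 0.789 in the left ventricle, and *Ly6c1*, the near copy of *Ly6c2*, had 1.31, 1.09, 1.04, and 0.665 in that order.

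**Figure D5:**
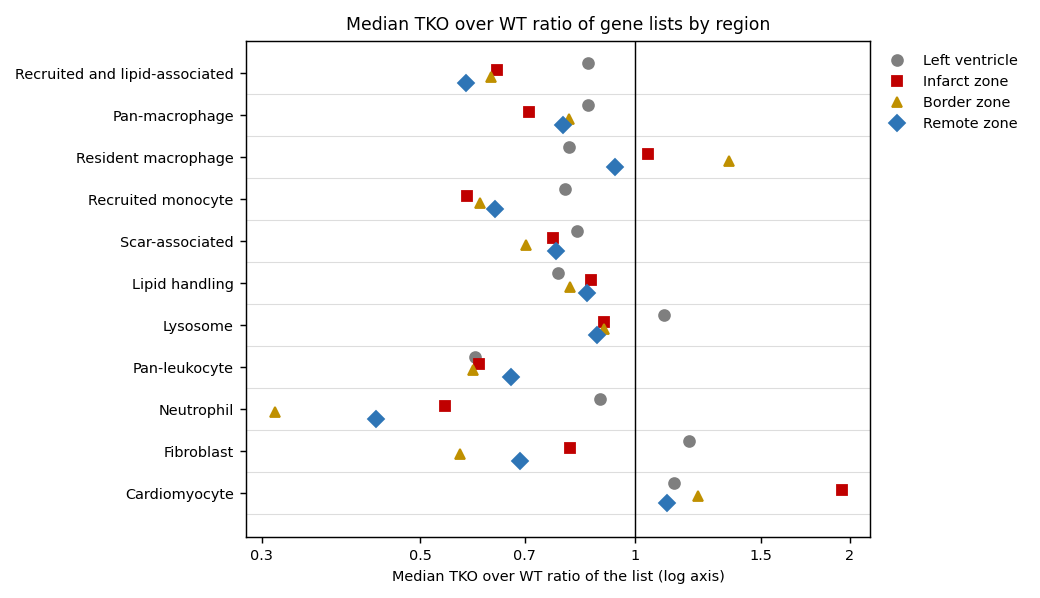
Median TKO over WT ratio (horizontal log axis) of the 10 genes, in the top row, and of 10 other gene lists in the left ventricle (circles), infarct (squares), border (triangles), and remote zone (diamonds). The top row lies at 0.580 to 0.640 in the 3 zones after a prior count of 2, the resident macrophage row lies at 0.937 to 1.35 in the same zones, and the cardiomyocyte row reaches 1.95.

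Over the 8 libraries the members' profiles were alike. The 45 pairwise Pearson correlations of log2(scaled CPM + 1) had a median of 0.945 and ran from 0.742 for *Arg1* and *Gpnmb* to 0.996 for *Cd68* and *Cd9*. They are a description, since the 8 points share the contrast of the infarct zone with the other regions. *Trem2* was closest to the mean profile of the 10 (r = 0.997), and *Arg1* farthest (r = 0.879). The 10 other genes with the profile most like that mean were *Trim59*, *Zfp36l2*, *Ctss*, *Def6*, *Laptm5*, *Anxa2*, *Tmem176a*, *Pla2g4a*, *Nab2*, and *Matn2*, with r between 0.996 and 0.998 over the 8 libraries. Of these *Ctss* (cathepsin S, a protease of antigen-presenting cells) had 153 and 88.6 scaled CPM in the WT and TKO infarct zone and 23.1 and 17.5 in the left ventricles.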

How the data were processed

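Each of 4 heart regions was represented by 1 WT and 1 TKO library of total RNA. Per the submitters' notes and the paper's methods, the authors trimmed reads with Trim Galore 0.6.5, quantified transcripts of the mm10 build with kallisto 0.46, and summed them to genes with tximport (edgeR 3.34.1 is also named). The deposited table holds estimated counts as whole numbers, not normalized, for 16994 genes, of which 16867 matched the GENCODE M21 annotation. All 8 columns were mapped by library name, and 0 other columns were left unused.

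The 10 members and all gene lists were chosen with earlier results of these data known. Members, *Tigar*, partners or near copies of members, at most 4 most abundant genes of a list, *Adgre1*, *Csf1r*, and the 10 genes most like the members were named. *Spi1* was added after its values were seen.

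Counts were analyzed in R 4.3.3 with edgeR 4.0.16: TMM scaling over the 8 libraries, a mean CPM of at least 1 (12999 genes), and the quasi-likelihood test with region and genotype as terms and Benjamini-Hochberg adjustment at 0.05. Ratios of 2 libraries have exact (Clopper-Pearson) 95% intervals for counting error. Counts of 2-fold differences and medians of lists other than the 10 genes used a prior count of 2. DESeq2 1.42.0, other scalings, priors, filters, panels, and leaving out each region were the alternatives. The tests were tried on simulated counts first. Shared 31-base words assume kallisto's default word length, which is not given in the sources used here. Figures were made with Python, pandas, numpy, and matplotlib.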

Additional observations from a re-analysis of the deposited data

Results flagged for a closer look

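The order of the border and remote zones was opposite in the 2 genotypes for *Spp1* and *Gpnmb*. For *Spp1* the border over remote ratio was 0.798 in WT and 1.94 in TKO, and for *Gpnmb* it was 0.751 in WT and 1.29 in TKO. None of these 4 intervals from counting error included 1. The difference between genotypes was not tested, since each zone of a genotype is 1 library.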

How the results depend on the processing

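No result of the 10 genes turned its direction past a threshold under an alternative. With total counts in place of TMM, the infarct zone median of the TKO over WT ratio became 0.521, and the infarct over left ventricle medians became 10.5 in WT and 7.95 in TKO. With total counts the infarct zone had 491 genes at least 2-fold lower and 116 higher in TKO (189 and 314 with TMM), and 4 members 2-fold lower. Without a filter on low counts the genes 2-fold lower and higher were 1262 and 710 in the left ventricle, 804 and 741 in the infarct, 1086 and 672 in the border, and 755 and 741 in the remote zone. With at least 10 counts in every library, 101 genes were 2-fold lower in the infarct and 195 in the remote zone.

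For the genotype difference across regions (8 genes lower and 10 higher), DESeq2 called 214 lower and 128 higher, with 4 members. Total counts gave 44 lower, with 2 members, DESeq2 size factors 5 lower with 0 members, and no region block 1 lower with 0 members. Leaving out each region in turn gave 0 to 60 genes lower, 3 to 20 higher, and 0 to 2 members lower. The highest of these came without the left ventricle, a choice repeated after seeing the data because of its adipocyte genes. Without the infarct zone *Arg1* and *Ly6c2* fell below the filter.

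For the infarct zone against the left ventricle, total counts called 1084 genes lower and 7869 higher, and against the border zone 738 and 7475. For the border zone against the left ventricle, DESeq2 called 100 lower and 476 higher with 4 members higher, and total counts 11 and 189 with 1 member. For the remote zone against the left ventricle, DESeq2 called 35 lower and 127 higher, total counts 3 and 15, and no filter 1 higher. Between the border and remote zones DESeq2 called 15 lower and 44 higher, and total counts 1 and 2. For the departure of the left ventricle, DESeq2 called 176 lower and 104 higher, and total counts 132 and 143 with 1 member. Except where the alternative itself has fewer genes or samples, the cause was not tested.

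The genotype test already sets WT beside TKO within each region, and its value without that block is given above. The labels give no replicate numbers by which to pair libraries further. Depth limits *Arg1* and *Ly6c2*, each at or under 3 counts in at least 1 library.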

Other observations

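*Chil3*, a lectin of monocytes and alternatively activated macrophages, had 3928, 153, and 651 counts in the WT infarct, border, and remote zone and 1450, 22, and 6 in TKO, against 14 and 10 in the WT and TKO left ventricle. Its TKO over WT ratio was 0.437 (0.411 to 0.464) in the infarct, 0.149 (0.0909 to 0.234) in the border, and 0.00932 (0.00341 to 0.0204) in the remote zone. In WT it was thus higher in the remote than in the border zone, as were *Spp1* and *Gpnmb*. *Spi1*, which encodes PU.1 and was looked at after its values were seen, had ratios of 0.748, 0.593, 0.707, and 0.656 in the left ventricle, infarct, border, and remote zone.

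Neutrophil markers were lower in TKO in 6 of 6 genes in the infarct and border zones, with medians of 0.541 and 0.313, from summed levels of 57.1 and 35.4 CPM in WT and 30.0 and 9.51 CPM in TKO. The 4 B cell markers were lower in 4 of 4 genes in the left ventricle, with a median of 0.163 and summed levels of 8.50 CPM in WT and 1.24 CPM in TKO.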
